A study of Mus musculus with 15 samples.

Results

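Growth factors and receptor tyrosine kinases of the mouse ovary were followed on 15 two-colour Agilent arrays of whole ovaries with both, one or no working copy of *Foxl2*, a forkhead transcription factor of the granulosa cells. The members are the fibroblast growth factors (FGF), insulin-like growth factors (IGF) with their binding proteins, platelet-derived and vascular endothelial growth factors (PDGF, VEGF), ephrins and their Eph receptors, the epidermal growth factor (EGF) family, and the *Kit*, *Flt3* and neurotrophin receptor axes. They were chosen by a rule on the gene symbol, and *Fgf9* was left out. Of the 12254 genes with a named probe, 74 met the rule, with 96 of the 15294 named probes, and each gene is given by its brightest probe. A further 26 symbols of the reference table match the rule and have no probe named here, among them *Igf1r*, *Igfbp3*, *Vegfa*, *Kdr*, *Fgfr1*, *Pdgfb*, *Egfr*, *Erbb2*, *Erbb3*, *Erbb4* and *Efna5*. A few members match by name only and are neither ligand nor receptor, such as the RNA-binding proteins *Igf2bp2* and *Igf2bp3* and the intracellular FGF *Fgf13*.

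Newborn ovaries were represented by 3 arrays each of *Foxl2*-/- (null), *Foxl2*+/- (heterozygous) and *Foxl2*+/+ (wild-type) females, and ovaries 7 days after birth (7 dpn) by 2 arrays of each genotype. The labels give the strain as NIHS-BC and the methods a mixed background that includes NIH-Swiss/BC. The loss is constitutive, so that every cell of the animal lacks the allele, and each 7 dpn array carried RNA pooled from several mice. All values are log2 ratios of ovary over a universal mouse reference RNA pooled from cell lines, so that 1 unit is a doubling against that reference and the level of one gene cannot be set against that of another.

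These families share a mode of action. A secreted or membrane-bound ligand brings receptor molecules together, their tyrosine kinase domains phosphorylate each other, and the Ras, phosphatidylinositol 3-kinase and phospholipase C pathways are engaged. In the ovary, *Kit* ligand from granulosa cells acts on the *Kit* receptor of oocytes, IGF1 enhances the action of follicle-stimulating hormone on granulosa cells, PDGF ligands act on theca and stromal cells, and VEGF ligands on blood and lymph vessels. Follicles assemble around birth in the mouse and the first wave of them grows during the following week.

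*Fgf18* and *Igf1* had the largest rise and the largest fall of all members in 7 dpn null ovaries, and the sequences before their start sites are shown for that reason. Both are the 250 bases upstream of the RefSeq start site in GRCm38.p6, given 5′ to 3′ along the gene's strand, for *Fgf18* chr11:33147401-33147650 on the minus strand and for *Igf1* chr10:87860861-87861110 on the plus strand. Capitals mark CpG dinucleotides.
Fgf18: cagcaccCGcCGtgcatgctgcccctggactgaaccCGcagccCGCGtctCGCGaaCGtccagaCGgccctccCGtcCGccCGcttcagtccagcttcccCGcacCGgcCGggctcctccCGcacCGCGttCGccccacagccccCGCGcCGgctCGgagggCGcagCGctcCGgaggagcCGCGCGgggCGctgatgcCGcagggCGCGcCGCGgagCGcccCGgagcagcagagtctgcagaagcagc
Igf1: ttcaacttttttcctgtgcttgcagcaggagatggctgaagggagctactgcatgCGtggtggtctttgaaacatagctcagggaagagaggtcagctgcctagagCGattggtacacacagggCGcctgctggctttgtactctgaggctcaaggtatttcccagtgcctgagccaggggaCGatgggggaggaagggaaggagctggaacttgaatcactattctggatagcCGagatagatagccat
The *Fgf18* stretch has 37 CpG dinucleotides and a GC content of 77.2%, and the *Igf1* stretch has 5 and 52.8%, against medians of 6 and 52.4% over 32851 mouse start sites. Over the start-site stretches of the members the medians are 15 and 62.8%. Of the other members called lower in 7 dpn null ovaries, *Igfbp7*, *Flt1* and *Vegfc* have 26, 23 and 30 CpG dinucleotides and *Pdgfra* has 4. Of those called higher, *Efna1* has 16 and 18 at its start sites and *Pdgfa* 19 and 28. The letters TAAACA, a core that forkhead factors recognise, were searched on both strands. They occur in neither stretch, in 7 of the 80 start-site stretches of the 62 members that have one, and in 12% of all start sites. A missing match says only that these letters are not in this window.

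Before the results, 4 facts of the arrays need to be given. The *Foxl2* probe lay between -0.34 and -0.19 on all 15 arrays and did not follow the genotype, so it gives no check of the labels. The array labelled newborn wild-type replicate 1 stood apart from its group. Its log2 ratios correlated with r from 0.923 to 0.940 with the 7 dpn wild-type and heterozygous arrays and with r of 0.888 and 0.907 with the other newborn wild-type arrays, whereas the other 8 newborn arrays reached 0.912 at most with those 7 dpn arrays. With the 6 newborn mutant arrays its r was 0.914 to 0.942, as high as with the 7 dpn arrays, and that of the other newborn wild-type arrays with the mutants was 0.878 to 0.930. The 4 adipocyte markers (*Adipoq*, *Fabp4*, *Plin1*, *Cfd*) averaged 3.54 on it, between 0.28 and 0.64 on the other newborn arrays and between 2.88 and 3.66 at 7 dpn. Its granulosa markers averaged 1.50, against 0.76 and 0.89 on the other newborn wild-type arrays. The 4 skeletal muscle markers with a probe averaged 1.76 and 0.50 on newborn wild-type replicates 2 and 3 and between -0.83 and -0.25 on the other 13 arrays. For the main counts and some of the calls that use the newborn wild-type group, the values without replicate 1 are therefore given as well. Counts at an unadjusted p are given with all arrays only. Newborn and 7 dpn arrays were feature-extracted on different days, so age and that day cannot be told apart.

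**Figure D1:**
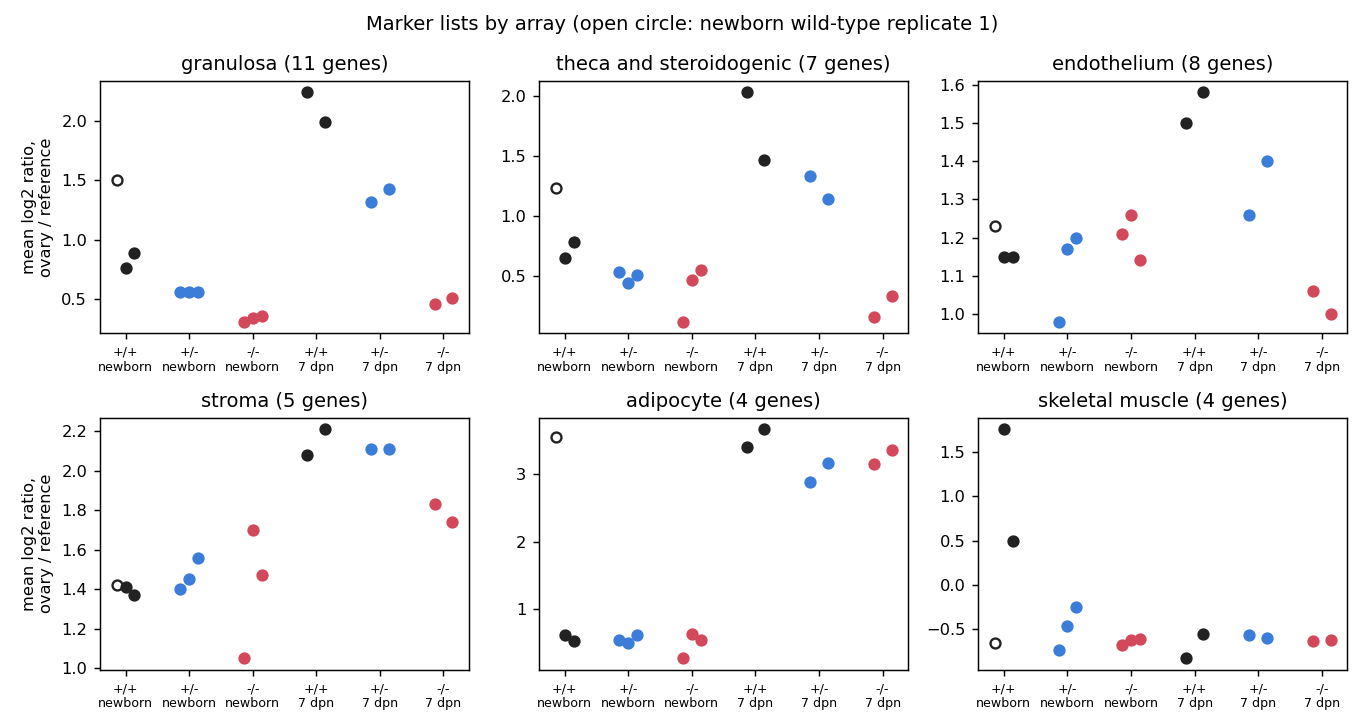
Mean log2 ratio of ovary over reference for 6 lists of cell type markers (vertical axes), with 1 point per array by genotype and age (horizontal axes). The open circle is newborn wild-type replicate 1, which lies at 3.54 for adipocyte markers, among the 7 dpn arrays (2.88 to 3.66).

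The ovary signal was well above background on all 15 arrays for 70 of the 74 members. *Fgf20* passed this flag on 5 arrays, *Fgfr3* on 3, and *Fgf8* and *Fgf22* on 14. On all arrays 21 members stayed within 0.4 of a log2 ratio of 0, among them *Igf2*, *Fgf10*, *Fgfr2* and *Flt3l*, and 1 of these, *Fgf11*, was called in any comparison. No test against a ratio of 0 was run, and some of the 21 lay on one side of it on all arrays, such as *Fgf11* (-0.37 to -0.16) and *Flt3l* (-0.32 to -0.11).

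At 7 dpn, 4 members were higher and 5 lower in null than in wild-type ovaries. *Fgf18*, *Pdgfrl*, *Efna1* and *Pdgfa* rose, and *Igf1*, *Pdgfra*, *Flt1*, *Vegfc* and *Igfbp7* fell, by 1.25-fold to 2.59-fold (limma, adjusted p from 0.00042 to 0.034). These 9 are 12.2% of the members, where 5.63% of all probes and 8.67% of the brightest probes of all named genes were called, so their share was near the background. At an unadjusted p under 0.05 (limma) there were 26 of the 74 members and 7019 of the 40995 probes tested. The median log2 fold change was 0.02 over the members and 0.00 over all probes, and 46 of 74 members and 50.8% of all probes were on the higher side.

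**Figure D2:**
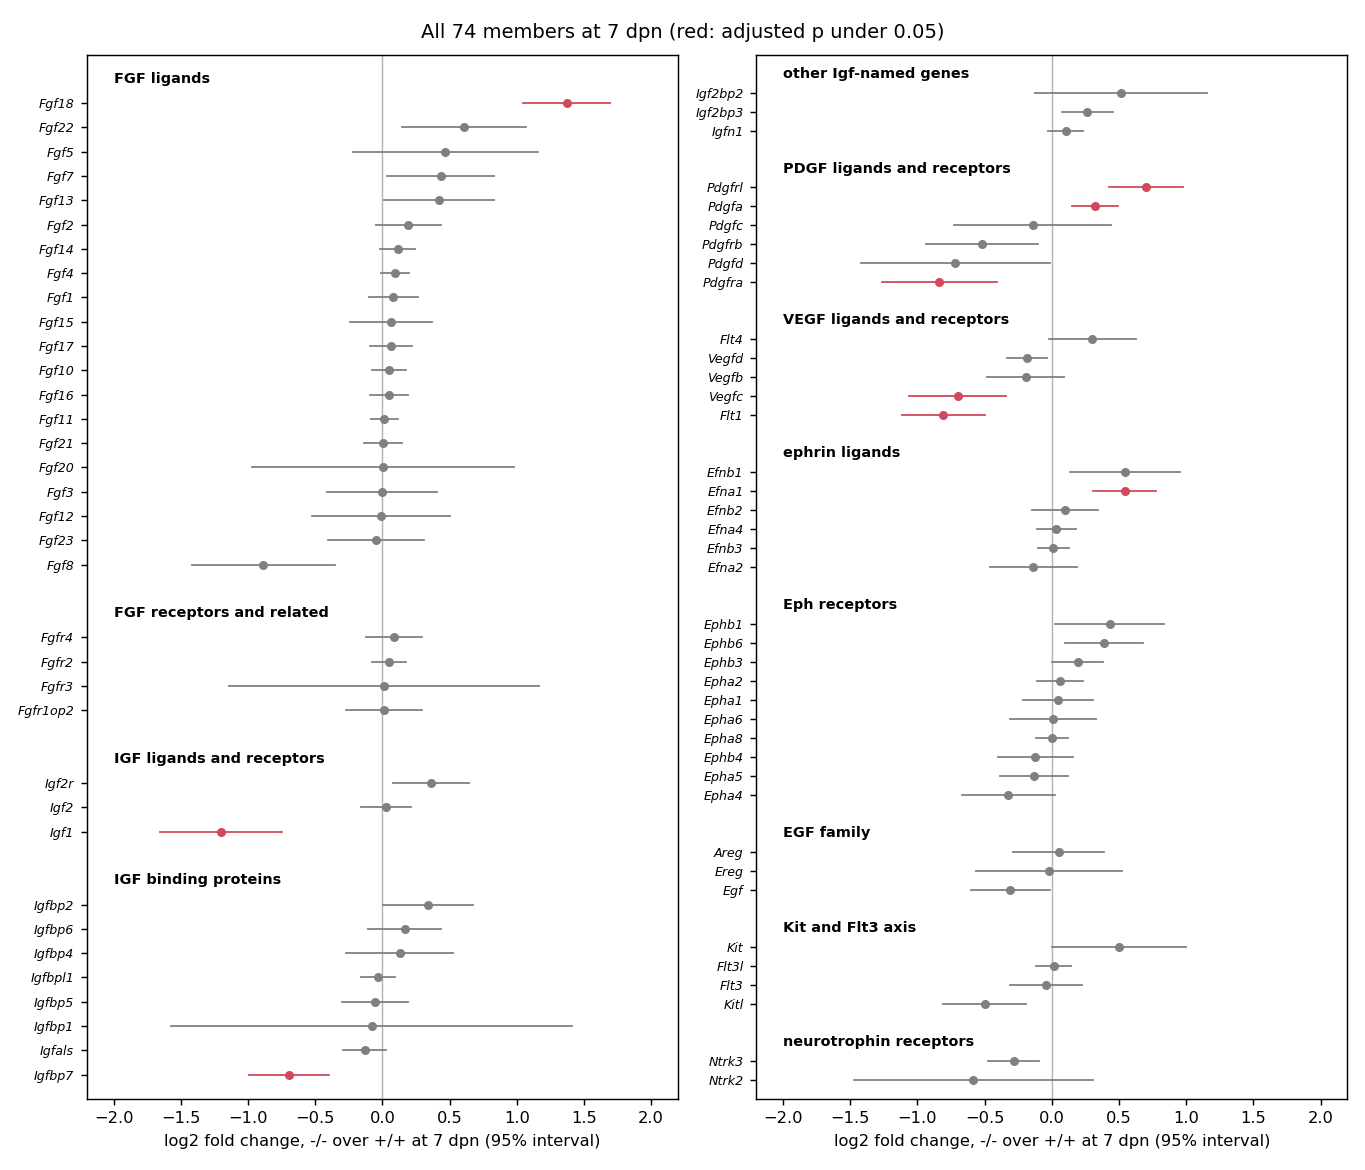
Log2 fold change of null over wild-type ovaries at 7 dpn (horizontal axis) with its 95% interval for each of the 74 members, grouped by family and sorted within it; red marks an adjusted p under 0.05 in limma. The 9 red members lie from -1.20 (*Igf1*) to 1.37 (*Fgf18*), and most others have intervals that include 0.

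Among the 20 genes grouped by symbol as FGF ligands, only *Fgf18*, a secreted FGF best known from skeletal and lung development, was called at 7 dpn. It stood at 2.17 and 2.19 on the null arrays, 0.90 and 0.72 on the heterozygous arrays and 0.72 and 0.90 on the wild-type arrays. The null arrays lay far above all 4 others, and the heterozygous and wild-type values coincided. The rise was 1.37 ± 0.15 (SE) on the log2 scale, or 2.59-fold, against wild-type (adjusted p = 0.00042, limma) and also 1.37 ± 0.15 against heterozygous ovaries (adjusted p = 0.000957, limma). Both calls held in each of the 24 alternative settings tried. The heterozygous ovaries differed from wild-type by -0.001, with a 95% interval from -0.33 to 0.32.

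*Fgf8*, an FGF that oocytes make and that acts on the surrounding granulosa cells, was at -0.17 and 0.35 in null, 0.90 and 0.77 in heterozygous and 0.69 and 1.27 in wild-type ovaries. The null values were the lowest, but the difference of -0.89 ± 0.24 missed the threshold (adjusted p = 0.0598, limma), and the signal was among the dimmest of the members. *Fgf22*, also dim, stood 0.61 ± 0.21 higher in null ovaries (adjusted p = 0.141, limma). The other ligands ranged from -0.05 for *Fgf23* to 0.47 for *Fgf5*, and the receptors *Fgfr2*, *Fgfr3* and *Fgfr4* from 0.01 to 0.09, with none called.

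The PDGF axis held called members in both directions. *Pdgfra*, the receptor of PDGF-A on mesenchymal and theca cells, was at 0.00 and -0.14 in null, 0.96 and 0.98 in heterozygous and 0.77 and 0.76 in wild-type ovaries. Its fall was 0.84 ± 0.19 against wild-type (1.79-fold, adjusted p = 0.029) and 1.04 ± 0.19 against heterozygous ovaries (2.05-fold, adjusted p = 0.0187, both limma). Its ligand *Pdgfa* was at 0.36 and 0.47 in null ovaries and between 0.08 and 0.12 on the 4 other arrays. Its rise was small, 0.32 ± 0.08 against wild-type (adjusted p = 0.034) and 0.30 ± 0.08 against heterozygous ovaries, where it was not called (adjusted p = 0.0814, limma).

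*Pdgfrl*, a protein that resembles the extracellular part of the PDGF receptors and has no kinase, gave another pattern. It was at 0.89 and 0.82 in null, 0.70 and 0.72 in heterozygous and 0.21 and 0.10 in wild-type ovaries, so that the heterozygous arrays lay near the null arrays. The null difference from wild-type was 0.70 ± 0.13 (adjusted p = 0.00772) and that from heterozygous ovaries 0.15 ± 0.13 (adjusted p = 0.811, limma). Heterozygous ovaries stood 0.56 ± 0.13 above wild-type, an unadjusted p of 0.00095 that did not pass over all probes (adjusted p = 0.161, limma). *Pdgfrb*, *Pdgfd* and *Pdgfc* were 0.52, 0.72 and 0.14 lower in null than in wild-type ovaries without being called, and the dimmer second probe of *Pdgfrb* differed by -0.01.

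In the IGF system, the ligand *Igf1* changed most. Its values were 0.88 and 0.87 in null, 2.19 and 2.01 in heterozygous and 2.01 and 2.15 in wild-type ovaries. The null arrays lay more than 1 unit below the others. The fall was 1.20 ± 0.21 against wild-type (2.30-fold, adjusted p = 0.0066) and 1.22 ± 0.21 against heterozygous ovaries (2.34-fold, adjusted p = 0.0106, limma), and the heterozygous difference from wild-type was 0.02, with a 95% interval from -0.43 to 0.47. Of the 8 binding protein genes, *Igfbp7*, a secreted protein that binds IGFs weakly and is abundant in vessel walls, was called. It was at 1.07 and 0.97 in null, 1.53 and 1.38 in heterozygous and 1.70 and 1.73 in wild-type ovaries, a fall of 0.69 ± 0.14 against wild-type (adjusted p = 0.0135, limma). *Igf2r*, which carries IGF2 to lysosomes and has no kinase, stood 0.36 higher and the ligand *Igf2* 0.03 higher. *Igfbp2*, *Igfbp4*, *Igfbp5* and *Igfbp6* differed by 0.34, 0.13, -0.05 and 0.17 in the same direction of subtraction, none of them called.

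Of the 5 VEGF genes, one receptor and one ligand fell. *Flt1*, the VEGF receptor 1 of blood vessel endothelium, was at -0.44 and -0.59 in null, -0.23 and 0.02 in heterozygous and 0.23 and 0.36 in wild-type ovaries. *Vegfc*, the ligand of the lymphatic receptor *Flt4*, was at -0.03 and -0.01, at 0.41 and 0.33, and at 0.75 and 0.62 in the same order. For both genes the 3 genotypes did not overlap and the heterozygous arrays lay in between. The falls against wild-type were 0.81 ± 0.14 for *Flt1* (1.75-fold, adjusted p = 0.00695) and 0.70 ± 0.17 for *Vegfc* (1.63-fold, adjusted p = 0.031, limma). *Flt4* stood 0.30 higher, *Vegfb* 0.19 lower and *Vegfd* 0.18 lower without being called. The dimmer probe of *Vegfd* was called at -0.39 (adjusted p = 0.0118, limma).

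*Efna1*, a membrane-anchored ligand of EphA receptors, was the called member among the 6 ephrins. It was at 1.76 and 1.85 in null, 1.32 and 1.26 in heterozygous and 1.13 and 1.40 in wild-type ovaries, with the null arrays above all others. It rose by 0.54 ± 0.11 against wild-type (1.45-fold, adjusted p = 0.0128) and by 0.52 ± 0.11 against heterozygous ovaries (adjusted p = 0.0275, limma). The rise against wild-type was 0.81 in the ovary channel alone and with the series values. *Efnb1* was also highest in null ovaries, at 3.35 and 3.57 against 2.65 to 3.06 on the other 4 arrays, but its difference of 0.54 ± 0.19 from wild-type was not called (adjusted p = 0.138, limma). *Efnb2* stood 0.10 higher, and the dimmer probe of *Efnb3* differed by -0.61 where its brighter probe differed by 0.01. The 10 Eph receptors ranged from -0.32 for *Epha4* to 0.43 for *Ephb1*, with *Epha5* at -0.13 and *Ephb4* at -0.12, and none was called.

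With all arrays neither *Kit* nor its ligand passed the threshold. *Kitl*, which granulosa cells make, was at 0.52 and 0.48 in null, 0.48 and 0.67 in heterozygous and 1.23 and 0.77 in wild-type ovaries. Its difference of -0.50 ± 0.14 missed the threshold with all arrays (adjusted p = 0.0678) and passed without newborn wild-type replicate 1, which enters the pooled spread (adjusted p = 0.0488, limma). *Kit*, the oocyte receptor, was at 4.35 and 4.89 in null and 4.29 and 3.94 in wild-type ovaries, a difference of 0.50 ± 0.23 (adjusted p = 0.294, limma). The dimmer probes gave 0.20 and -0.04 for *Kit* and -0.17 for *Kitl*. The EGF family members *Egf*, *Areg* and *Ereg* differed by -0.31, 0.05 and -0.02, and the neurotrophin receptors *Ntrk2* and *Ntrk3* by -0.58 and -0.28, with none called.

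**Figure D3:**
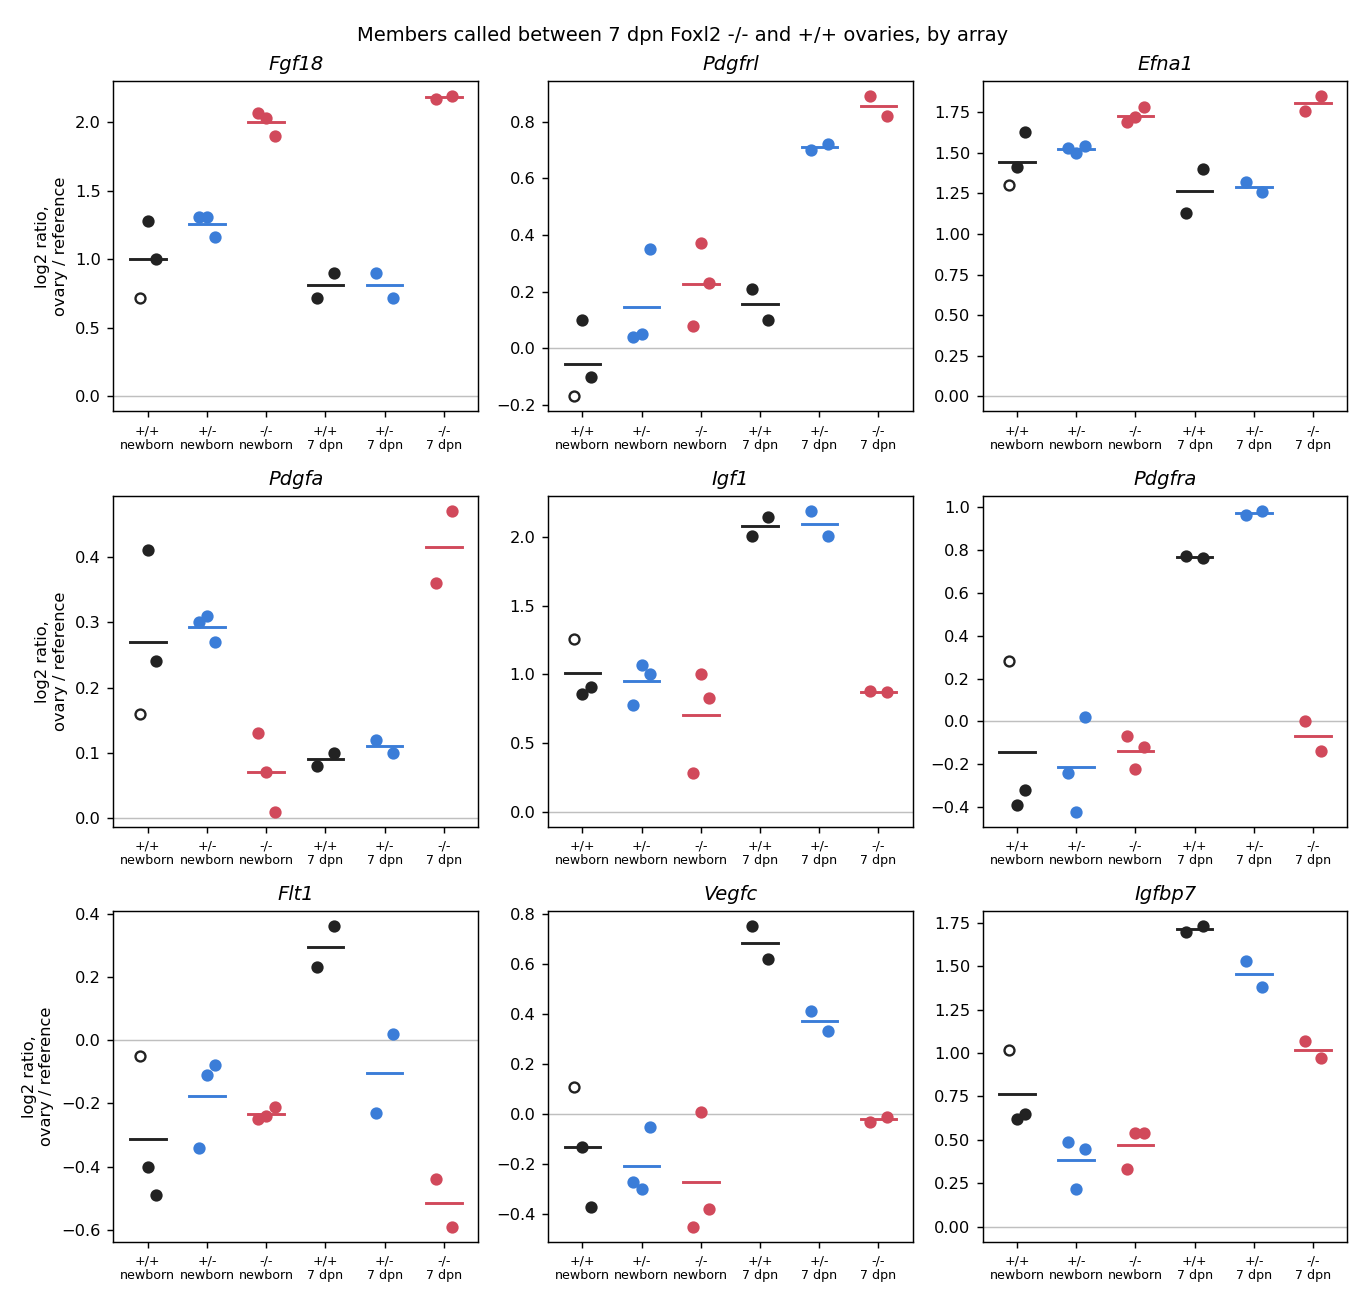
Log2 ratio of ovary over reference (vertical axes) of the 9 members called between null and wild-type ovaries at 7 dpn, with 1 point per array and a bar at the mean of each genotype and age (horizontal axes); the open circle is newborn wild-type replicate 1. At 7 dpn the null arrays lie above wild-type in *Fgf18*, *Pdgfrl*, *Efna1* and *Pdgfa* and below it in *Igf1*, *Pdgfra*, *Flt1*, *Vegfc* and *Igfbp7*.

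With either null or either wild-type array of 7 dpn left out, 4 of the 9 members were no longer called, with fold changes that stayed between -0.91 and -0.77 for *Pdgfra*, -0.76 and -0.64 for *Vegfc*, -0.74 and -0.66 for *Igfbp7* and 0.28 and 0.38 for *Pdgfa*. *Pdgfa* was also lost without newborn heterozygous replicate 1 (0.32). *Igf1* and *Flt1* were lost without null replicate 2 (-1.21 and -0.73) and without wild-type replicate 2 (-1.12 and -0.75). *Efna1* was lost without null replicate 2 (0.51) or wild-type replicate 1 (0.40), and *Pdgfrl* without null replicate 1 (0.68) or wild-type replicate 2 (0.66). A group of 2 is then 1 array, whose spread is assumed to be that of the other groups. Under the same removals, 5, 2, 5 and 3 members were called without null replicates 1 and 2 and wild-type replicates 1 and 2.

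Markers of several cell types differed between the same arrays. The 11 granulosa markers averaged 0.46 and 0.51 in null, 1.32 and 1.43 in heterozygous and 2.24 and 1.99 in wild-type ovaries at 7 dpn, and the 7 theca and steroidogenic markers with a probe 0.16 and 0.33, 1.33 and 1.14, and 2.03 and 1.47. The 8 endothelial markers averaged 1.06 and 1.00 in null, 1.26 and 1.40 in heterozygous and 1.50 and 1.58 in wild-type ovaries. Of these, *Cd34*, *Ramp2* and *Tie1* held this order without overlap, and *Pecam1*, *Cdh5*, *Tek* and *Emcn* overlapped between genotypes. *Esam* had the reverse order (-0.19 and -0.23 in null, -0.38 and -0.44 in wild-type ovaries). The 5 stromal markers averaged 1.83 and 1.74 in null ovaries and between 2.08 and 2.21 in the others. *Col1a1*, *Col1a2* and *Dcn* were lower on both null arrays than on the others, and *Lum* and *Postn* overlapped. The 8 oocyte markers with a value on every array, of 11, averaged 2.84 and 2.96 in null ovaries and between 3.37 and 3.56 in the others. Among them *Bmp15* (0.50 and 0.33 against 1.93 to 2.21) and *Oosp1* (0.04 and 0.17 against 1.74 to 2.42) were lower in null ovaries, while *Nobox*, *Ddx4* and *Dazl* overlapped. The 4 oviduct and mesonephric epithelium markers with a probe averaged 1.63 and 1.59 in null ovaries and between 1.17 and 1.27 in the others. Of these, *Pax8* (0.41 and 0.52 against 0.00 to 0.10) and *Wt1*, which gonadal somatic cells also express (2.95 and 3.55 against 2.59 to 2.85), lay above the others on both null arrays, and *Pax2* and *Cdh16* overlapped. In whole ovaries, fewer cells of a type and less RNA per cell cannot be told apart, and the part of these cell types in the members' differences was not tested.

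Between heterozygous and wild-type ovaries at 7 dpn, 0 members were called by limma, and 0.0707% of all probes were called. At an unadjusted p under 0.05 there were 9 of the 74 members and 8.93% of all probes. The lowest differences were *Pdgfd* (-0.46), *Kitl* (-0.43), *Vegfb* (-0.41), *Flt1* (-0.40) and *Fgf13* (-0.32), and the highest were *Pdgfrl* (0.56), *Fgf7* (0.54), *Igf2r* (0.39), *Igf2bp2* (0.39) and *Fgf22* (0.36). The 95% intervals of the 5 members that fell in null ovaries were -0.43 to 0.47 for *Igf1*, -0.23 to 0.63 for *Pdgfra*, -0.70 to -0.09 for *Flt1*, -0.68 to 0.05 for *Vegfc* and -0.56 to 0.04 for *Igfbp7*. Only the interval of *Flt1* among these 5 left out 0, before any adjustment for the number of probes.

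Between null and heterozygous ovaries at 7 dpn, 4 members were called (*Fgf18* and *Efna1* higher, *Igf1* and *Pdgfra* lower), where 2.25% of all probes were. *Fgf13*, an intracellular FGF, stood 0.75 ± 0.18 higher in null ovaries (adjusted p = 0.0715) and *Ephb1* 0.69 ± 0.18 (adjusted p = 0.0959, limma). *Efnb1* stood 0.60 higher, and *Fgf8*, *Ntrk2* and *Egf* 0.75, 0.65 and 0.45 lower, without being called. Without any one of the 7 dpn null or heterozygous arrays, *Igf1* (-1.33 to -1.16), *Pdgfra* (-1.11 to -0.98) and *Efna1* (0.47 to 0.57) were no longer called, and *Efna1* was also lost without any newborn heterozygous array. The comparisons with heterozygous and with wild-type ovaries share the null arrays and are not independent of each other.

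In newborn ovaries 4 members were called between null and wild-type. *Fgf18*, *Ephb1* and *Igf2r* were higher and *Efnb2* lower. This is 5.41% of the members, against 1.59% of all probes and 2.46% of the brightest probes of all named genes. The median log2 fold change was 0.02 over the members and -0.01 over all probes, and 45 of 74 members were on the higher side. Without replicate 1 of the wild-type, 9 members and 6.93% of all probes were called. Between the same groups the granulosa markers averaged 0.31 to 0.36 in null and 0.76 to 1.50 in wild-type ovaries, the theca and steroidogenic markers 0.12 to 0.55 and 0.65 to 1.23, and the oocyte markers 2.62 to 2.79 and 2.98 to 3.19. Of the granulosa markers, *Amhr2* was higher in null ovaries (5.52 to 5.59 against 5.16 to 5.49), and *Foxl2* and *Fshr* overlapped. The oviduct and mesonephric markers averaged 1.03 to 1.18 and 0.84 to 0.98, and the 3 adrenal markers with a probe 0.50 to 0.57 and 0.24 to 0.41. Of the adrenal markers only *Mc2r* was higher in null ovaries (1.72 to 1.82 against 0.97 to 1.43), and *Cyp21a1* and *Cyp11b2* overlapped. The part of these cells in the newborn differences was not tested.

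**Figure D4:**
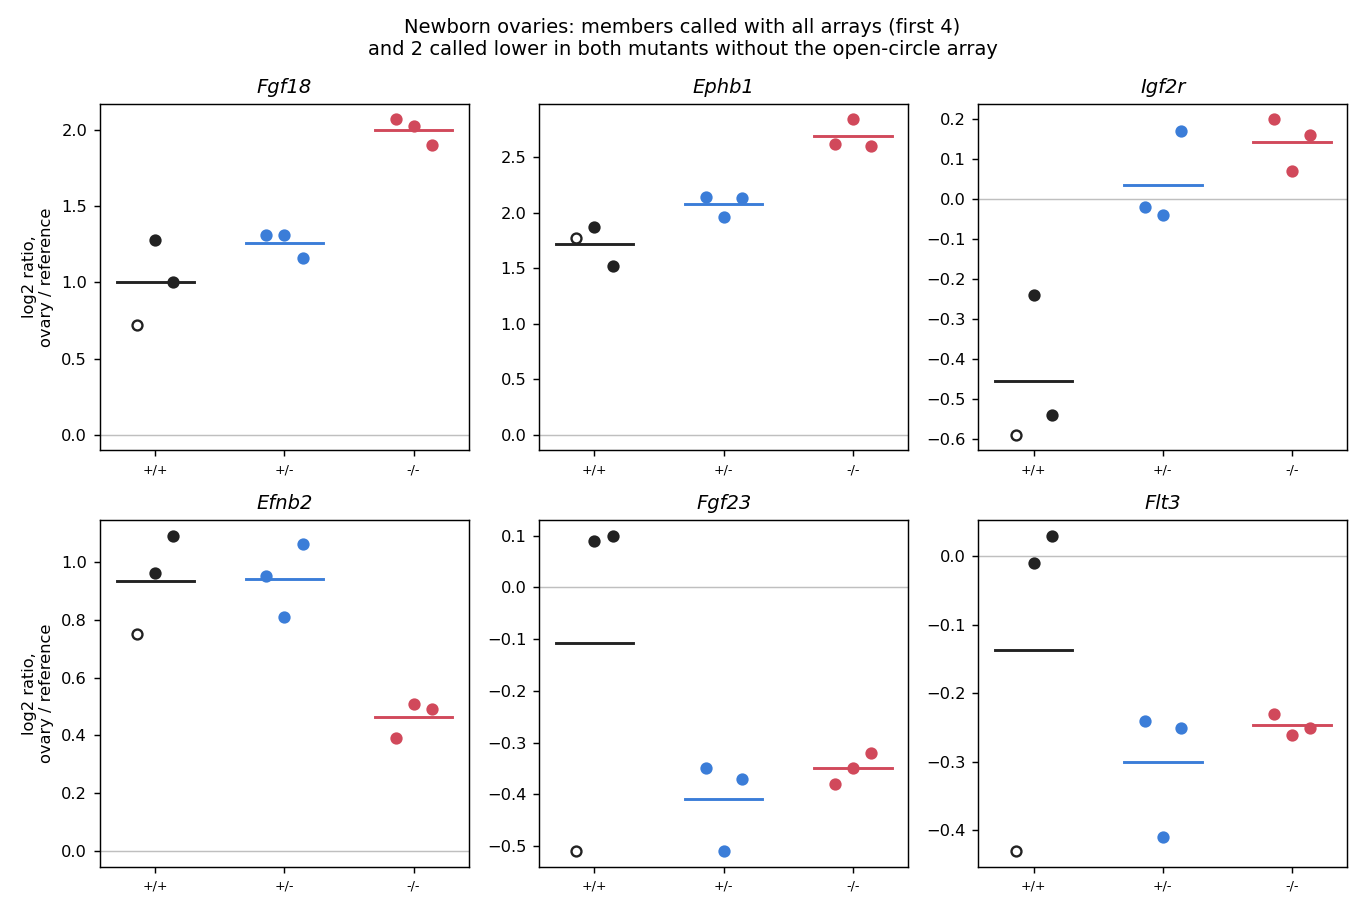
Log2 ratio of ovary over reference (vertical axes) in newborn wild-type, heterozygous and null ovaries (horizontal axes), with 1 point per array and a bar at the group mean; the open circle is wild-type replicate 1. In *Fgf18*, *Ephb1*, *Igf2r* and *Efnb2* the null and wild-type arrays do not overlap, and in *Fgf23* and *Flt3* wild-type replicates 2 and 3 lie above all other arrays.

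*Fgf18* was higher in null ovaries at birth as well. It stood at 2.07, 2.03 and 1.90 in null, 1.31, 1.31 and 1.16 in heterozygous and 0.72, 1.28 and 1.00 in wild-type ovaries. The rise was 1.00 ± 0.12 against wild-type (2.00-fold, adjusted p = 0.00217, limma) and 0.85 without wild-type replicate 1, and it held in all 24 alternative settings. Against heterozygous ovaries it rose by 0.74 ± 0.12 (1.67-fold, adjusted p = 0.0304, limma), which made it the 1 member called in that comparison, where 0.378% of all probes were called. Leaving out any of the 6 newborn null or heterozygous arrays, or 7 dpn heterozygous replicate 1, ended this last call (0.69 to 0.80). Between the ages the null effect on *Fgf18* differed by 0.37, with a 95% interval from -0.05 to 0.79 (adjusted p = 0.534, limma).

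The ephrin system had called members on the receptor and the ligand side. *Ephb1*, a receptor of B-class ephrins, was at 2.62, 2.84 and 2.60 in null, 2.14, 1.96 and 2.13 in heterozygous and 1.77, 1.87 and 1.52 in wild-type ovaries, so that the genotypes did not overlap. It rose by 0.97 ± 0.15 in null against wild-type (1.95-fold, adjusted p = 0.00893, limma), in every alternative setting tried. *Efnb2*, a B-class ephrin known from arteries, was at 0.39, 0.51 and 0.49 in null, 0.95, 0.81 and 1.06 in heterozygous and 0.75, 0.96 and 1.09 in wild-type ovaries. It fell by 0.47 ± 0.09 against wild-type (1.38-fold, adjusted p = 0.0304), and the difference of 0.47 from heterozygous ovaries missed the threshold with all arrays (adjusted p = 0.0627, limma) and passed without wild-type replicate 1 (adjusted p = 0.0249, limma). In 8 of the 15 leave-one-out fits the call of *Efnb2* against wild-type was lost (without any newborn null array, wild-type replicates 2 or 3, either 7 dpn heterozygous array or 7 dpn null replicate 2), with fold changes from -0.49 to -0.40. *Efnb1*, at 3.29, 3.52 and 3.68 in null and 2.69 to 3.08 on the other newborn arrays, was 0.64 ± 0.15 higher than in wild-type without being called (adjusted p = 0.0735, limma).

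*Igf2r* was at 0.20, 0.07 and 0.16 in null, -0.02, -0.04 and 0.17 in heterozygous and -0.59, -0.24 and -0.54 in wild-type newborn ovaries. It rose by 0.60 ± 0.11 in null against wild-type (1.52-fold, adjusted p = 0.0175, limma), and heterozygous ovaries stood 0.50 ± 0.11 above wild-type without being called (adjusted p = 0.144, limma). *Igfbp1* had the largest mean difference of all members, 1.07 ± 0.55, because 1 null array stood at 3.19 and the others at 0.40 and 1.17, and it was not called (adjusted p = 0.431, limma). Without wild-type replicate 1 the fold changes were 0.53 for *Igf2r*, 0.99 for *Ephb1* and -0.55 for *Efnb2*, all called. The call of *Igf2r* was lost without null replicate 1 (0.56), null replicate 3 (0.61) or wild-type replicate 3 (0.56). *Igf1*, which fell at 7 dpn, was at 0.28, 1.00 and 0.83 in null and at 1.26, 0.86 and 0.91 in wild-type newborn ovaries, and the groups overlapped. *Kitl*, *Fgf5* and *Igfbp7* stood 0.39, 0.33 and 0.29 lower in null ovaries, and *Igf2* 0.22 higher, without being called.

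Without wild-type replicate 1, *Fgf17* and *Vegfb* were also called higher and *Fgf23*, *Flt3* and *Pdgfa* lower in newborn null ovaries. *Fgf23* encodes a hormone of phosphate balance and *Flt3* a receptor kinase of blood progenitors. *Fgf23* was at 0.09 and 0.10 on wild-type replicates 2 and 3 and between -0.55 and -0.32 on the other 13 arrays, and *Flt3* at -0.01 and 0.03 against -0.43 to -0.23. *Fgf17* was lowest on the same arrays, at -0.39 and -0.37 against -0.28 to -0.12, and so was *Vegfb*, at -0.50 and -0.42 against -0.41 to 0.21. These are the 2 arrays with raised skeletal muscle markers, and the part of that tissue was not tested. Between heterozygous and wild-type ovaries *Fgf23* and *Flt3* were the 2 members called without replicate 1, both lower in the heterozygous, where 5.79% of all probes were called. With all arrays 0 members were called between newborn heterozygous and wild-type ovaries by limma, and 0.0219% of all probes were called. At an unadjusted p under 0.05 these were 8 of the 74 members and 12.9% of all probes. The lowest differences there were *Fgf5* (-0.38), *Igfbp7* (-0.38), *Fgf23* (-0.30), *Kitl* (-0.26) and *Epha1* (-0.19), and the highest *Fgf7* (0.51), *Igf2r* (0.50), *Ephb1* (0.36), *Fgf18* (0.26) and *Pdgfrb* (0.25). Between newborn null and heterozygous ovaries, *Fgf7*, *Ntrk2*, *Igf1* and *Epha4* stood 0.46, 0.38, 0.24 and 0.23 lower, and *Igfbp1*, *Ephb1*, *Efnb1* and *Fgf2* 1.11, 0.61, 0.58 and 0.27 higher, none of them called.

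From birth to 7 dpn, 14 members changed in wild-type ovaries, 10 upward and 4 downward. This was 18.9% of the members, against 8.92% of all probes and 13.1% of the brightest probes of all named genes. In heterozygous ovaries 10 members changed (13.5%, against 8.43% of all probes), and in null ovaries 7 (9.46%, against 3.59%). Across the 3 genotypes 19 of the 74 members changed in at least 1, as did 13.9% of all probes and 19.9% of the brightest probes. The count in wild-type ovaries was 5 and 7 without 7 dpn wild-type replicates 1 and 2, and 8 and 7 without newborn wild-type replicates 2 and 3. In null ovaries it was 1 and 0 without either 7 dpn null array and 2 and 4 without newborn null replicates 2 and 3. In heterozygous ovaries it was 6 and 5 without either 7 dpn array and 6 without newborn replicate 2. In all 15 leave-one-out fits, *Igf2bp3*, *Igfbp6* and *Igfbp7* stayed called in wild-type ovaries, and with *Igf1* and *Pdgfra* also in heterozygous ovaries. Without newborn wild-type replicate 1, 18 members and 18.9% of all probes were called in wild-type ovaries, and the rises of *Igf1*, *Pdgfra*, *Vegfc* and *Flt1* were 1.22, 1.11, 0.94 and 0.73.

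**Figure D5:**
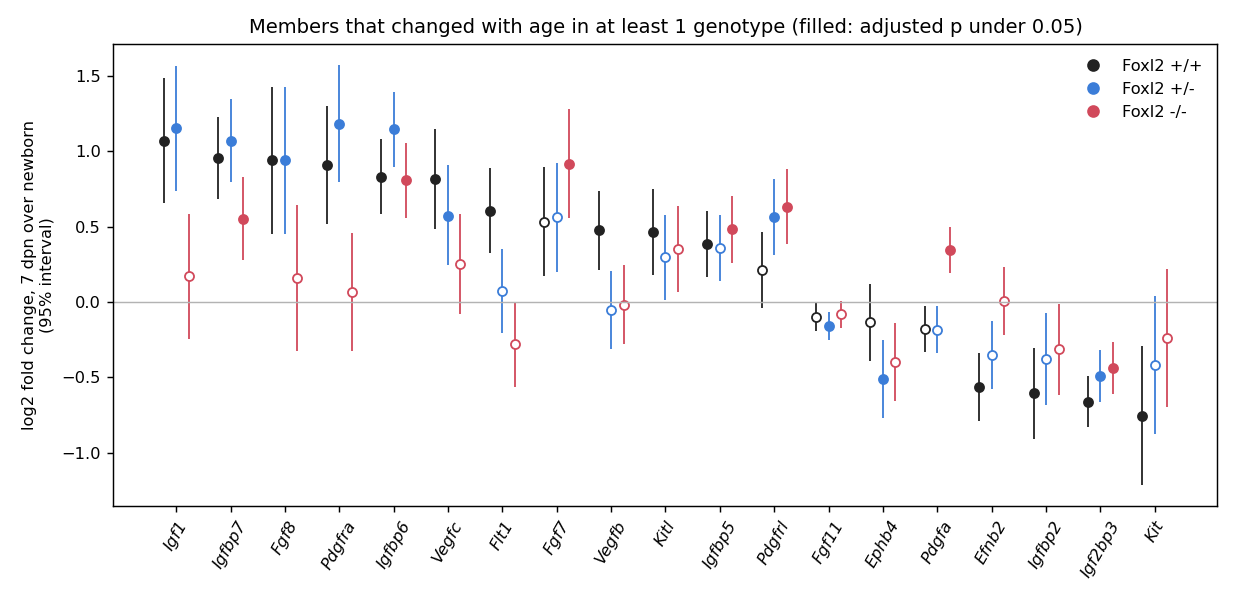
Log2 fold change from newborn to 7 dpn (vertical axis) with its 95% interval in wild-type, heterozygous and null ovaries, for the 19 members (horizontal axis) called in at least 1 genotype; filled points have an adjusted p under 0.05 in limma. *Igf1* and *Pdgfra* rose by 0.91 to 1.18 in wild-type and heterozygous ovaries and stood at 0.17 and 0.07 in null ovaries, while *Igfbp6* rose in all 3.

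Markers of several cell types were higher at 7 dpn than at birth in wild-type ovaries. There the granulosa markers averaged 0.76 to 1.50 at birth and 1.99 to 2.24 at 7 dpn, the stromal markers 1.37 to 1.42 and 2.08 to 2.21, the 3 smooth muscle and pericyte markers with a probe 1.61 to 1.93 and 2.29 to 2.43, and the endothelial markers 1.15 to 1.23 and 1.50 to 1.58. In null ovaries the granulosa markers averaged 0.31 to 0.36 and 0.46 to 0.51, the stromal markers 1.05 to 1.70 and 1.74 to 1.83, the smooth muscle markers 1.73 to 1.90 and 2.24 to 2.42, and the endothelial markers 1.14 to 1.26 and 1.00 to 1.06. The theca and steroidogenic markers averaged 0.65 to 1.23 at birth and 1.47 to 2.03 at 7 dpn in wild-type ovaries, the oocyte markers 2.98 to 3.19 and 3.52 to 3.56, and the leukocyte markers -2.55 to -2.27 and -2.02 to -1.64. The adipocyte markers, given above, were also higher at 7 dpn. Their part in the members' changes with age was not tested.

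*Igf1* rose from 1.26, 0.86 and 0.91 at birth to 2.01 and 2.15 at 7 dpn in wild-type ovaries, by 1.07 ± 0.19 (2.10-fold, adjusted p = 0.00754, limma). The heterozygous rise was 1.15 ± 0.19 (adjusted p = 0.00444, limma). In null ovaries it changed by 0.17, with a 95% interval from -0.24 to 0.59. The null effect on *Igf1* differed between the ages by -0.90 ± 0.27, which did not pass over all probes (adjusted p = 0.221, limma). *Pdgfra*, which marks stroma and theca, had rises of 0.91 ± 0.18 and 1.18 ± 0.18 in wild-type and heterozygous ovaries and a change of 0.07 in null ovaries, and its null effect differed between the ages by -0.84 ± 0.25 (adjusted p = 0.222, limma). The wild-type call of *Igf1* was lost without 7 dpn wild-type replicate 2 (0.99) and that of *Pdgfra* without either 7 dpn wild-type array (0.90 and 0.92).

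Of the 5 VEGF genes, 3 rose in the wild-type. *Vegfc*, *Flt1* and *Vegfb*, a ligand of *Flt1*, rose by 0.81 ± 0.15, 0.60 ± 0.13 and 0.47 ± 0.12 (limma, adjusted p from 0.0093 to 0.0312), and the ligand *Vegfd* (0.09) and the receptor *Flt4* (-0.16) were not called. Leaving out newborn replicate 2 or 3 or either 7 dpn array of the wild-type ended the calls of *Flt1* (0.51 to 0.65) and *Vegfb* (0.38 to 0.55), and that of *Vegfc* was lost without 7 dpn wild-type replicate 1 (0.75). In heterozygous ovaries only *Vegfc* of the 3 was called (0.57), a call lost in 9 of the 15 leave-one-out fits (0.54 to 0.60), and in null ovaries the changes were 0.25, -0.28 and -0.02, none called. The dimmer *Vegfb* probe gave 0.20 in the wild-type and was not called.

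The binding proteins of the IGFs changed in several directions. *Igfbp6* rose in every genotype, by 0.83 ± 0.11 in wild-type, 1.15 ± 0.11 in heterozygous and 0.81 ± 0.11 in null ovaries, and its second probe gave 0.83 in the wild-type. The null rise was no longer called without 7 dpn null replicate 2 (0.79). *Igfbp7* rose by 0.95, 1.07 and 0.55 in that order. The wild-type and heterozygous calls held in every setting tried but the null call was lost in 9 of the 15 leave-one-out fits, among them those without any 1 null array (0.47 to 0.61). *Igfbp5* rose by 0.39 in wild-type and 0.48 in null ovaries, but its dimmer probe gave -0.17 in the wild-type, and the calls were lost in 9 and 5 of the leave-one-out fits (0.28 to 0.44 and 0.42 to 0.51). Over the other settings the *Igfbp5* rise ran from 0.11, as the median over its probes, to 0.82 in wild-type and from 0.28 to 0.92 in null ovaries, and was not called with median centring, the ovary channel alone, the series values or the replicate block, nor in null ovaries with a span of 0.3. *Igfbp2* fell in the wild-type alone among the calls, by 0.61 ± 0.14, with changes of -0.38 and -0.31 in heterozygous and null ovaries, and a difference between genotypes was not called. Its call was lost without newborn replicate 2 or 3 or either 7 dpn array of the wild-type (-0.71 to -0.50). *Igf2bp3*, an RNA-binding protein that binds *Igf2* messenger RNA, fell by 0.66, 0.49 and 0.44 in wild-type, heterozygous and null ovaries, and its 6 values at 7 dpn (-0.29 to 0.19) lay below all 9 newborn values (0.40 to 0.67). The null call was lost without newborn null replicate 2 or either 7 dpn null array (-0.49 to -0.38).

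*Kit* and *Kitl* moved in opposite directions in wild-type ovaries. *Kit* was at 5.06, 4.81 and 4.75 at birth and at 4.29 and 3.94 at 7 dpn, a fall of 0.75 ± 0.21 (adjusted p = 0.0472), and *Kitl* went from 0.72, 0.35 and 0.54 to 1.23 and 0.77, a rise of 0.46 ± 0.13 (adjusted p = 0.0477, limma). Both calls were close to the threshold. Without newborn wild-type replicate 1 that of *Kit* was lost (-0.65, adjusted p = 0.0769, limma), and it was also lost in 10 of the other leave-one-out fits. The call of *Kitl* was lost in 12 of the 15, with rises from 0.24 to 0.49, and held in 7 of all 24 settings. The dimmer probes of *Kit* gave -0.36 and -0.11 and that of *Kitl* 0.17. *Fgf8* rose by 0.94 ± 0.22 in wild-type and by as much in heterozygous ovaries, and stood 0.16 higher in null ovaries, where it was not called. Its wild-type call was lost without newborn replicate 3 or 7 dpn replicate 2 of that group (0.66 to 0.72), and its heterozygous call in 4 of the leave-one-out fits (0.85 to 0.99). The wild-type and heterozygous rises were 0.36 and 0.35 with normexp background correction and 0.35 and 0.15, not called, with the authors' series values.

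Other changes with age were called in some genotypes only, and with all arrays no difference between the genotypes was called for them. *Pdgfrl* rose by 0.56 ± 0.11 in heterozygous and 0.63 ± 0.11 in null ovaries, against 0.21 in the wild-type. *Pdgfa* rose by 0.34 ± 0.07 in null ovaries, from 0.13, 0.07 and 0.01 to 0.36 and 0.47, while in wild-type and heterozygous ovaries it differed by -0.18 in either. *Fgf7*, a stromal FGF that acts on epithelial receptors, rose by 0.92 ± 0.16 in null ovaries, against 0.53 and 0.56 in the others. *Efnb2* fell by 0.56 ± 0.10 in the wild-type and differed by -0.35 in heterozygous and 0.00 in null ovaries. *Ephb4*, the receptor of *Efnb2*, fell by 0.51 ± 0.12 and *Fgf11* by 0.16 ± 0.04 in heterozygous ovaries, and in neither gene did a dimmer probe show a call. Each call of this paragraph was lost in 1 to 5 of the leave-one-out fits, with that of *Efnb2* lost only without 7 dpn wild-type replicate 1 (-0.42), that of *Pdgfa* at 0.28 to 0.41 and that of *Fgf7* at 0.83 to 1.00. The rise of *Fgf7* was 0.33 with normexp background correction and 0.22, not called, with the authors' series values. The fall of *Ephb4* was 0.05 as the median over its probes.

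Whether a genotype effect differed between the ages was tested by the interaction. With all arrays, 0 members were called for the null effect (0.21% of all probes) and 0 for the heterozygous effect (0.00244% of all probes) by limma, with 14 and 5 of the 74 at an unadjusted p under 0.05, where 10.8% and 7.44% of all probes were. The smallest adjusted p among members was that of *Pdgfa*, whose null effect differed by 0.52 ± 0.10 (adjusted p = 0.0685), followed by *Flt1* at -0.88 ± 0.18 (adjusted p = 0.0925, limma). Without newborn wild-type replicate 1, 7 members were called for the null effect (3.4% of all probes), with differences of -1.05 for *Pdgfra*, -1.01 for *Flt1*, -0.60 for *Vegfb*, -0.57 for *Igfbp7*, 0.42 for *Fgf23*, 0.58 for *Pdgfa* and 0.61 for *Efnb2*. For the heterozygous effect *Flt1* (-0.66) and *Fgf23* (0.50) were then called, where 1.94% of all probes were. These interaction calls rest on leaving out that 1 array. The newborn wild-type arrays that remain are those with raised skeletal muscle markers, on which *Fgf23* was highest and *Vegfb* lowest of all arrays. The part of that tissue in these calls was not tested.

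Of 68 signalling genes that act downstream of these receptors, 47 had a probe, and 5 were called between null and wild-type ovaries at 7 dpn. This share of 10.6% was near the background of 5.63% of all probes and 8.67% of the brightest probes of all named genes. Lower were *Myc*, a growth-regulating transcription factor (-1.49 ± 0.32), *Foxo1*, a forkhead factor that the phosphatidylinositol 3-kinase pathway keeps out of the nucleus (-1.33 ± 0.14), and *Grb14*, an adaptor that restrains insulin receptor signalling (-0.98 ± 0.09). Higher were *Nras* (0.46 ± 0.11) and *Plcg2*, a phospholipase C (0.53 ± 0.12; limma, adjusted p of the 5 from 0.00015 to 0.0294). *Foxo1* was at 1.10 and 1.01 in null, 1.77 and 1.66 in heterozygous and 2.37 and 2.39 in wild-type ovaries, and the 3 genotypes did not overlap. Against heterozygous ovaries *Foxo1* (-0.66) and *Grb14* (-0.60) were called. In newborns 1 of the 47 (2.13%, against 1.59% of all probes) was called between null and wild-type, *Grb14* (-0.52, adjusted p = 0.00494, limma), which was at -0.73, -0.72 and -0.80 in null and at -0.23, -0.36 and -0.12 in wild-type ovaries. Without newborn wild-type replicate 1, *Grb14* (-0.51) and *Spred3*, an inhibitor of Ras signalling (-0.39), were called there, and *Spred3* stood at 0.42 and 0.54 on the other newborn wild-type arrays, those with raised skeletal muscle markers, and between -0.07 and 0.28 on the other 13. *Grb14* (-0.46) was then called between heterozygous and wild-type newborns as well. The *Spry*, *Dusp6* and *Etv* genes with a probe, inhibitors and transcription factors that FGF signalling is known to induce, had no call between null and wild-type at either age, with or without that array. With age, 9 of the 47 (19.1%, against 8.92% of all probes and 13.1% of the brightest probes) changed in wild-type ovaries, among them *Myc* (1.24 ± 0.29) and *Foxo1* (1.01 ± 0.13) upward and *Plcg2* (-0.72 ± 0.11) and *Nras* (-0.60 ± 0.10) downward. The count was 14 without newborn wild-type replicate 1 (29.8%, against 18.9% of all probes), with 1.64 for *Myc*, 1.18 for *Foxo1*, -0.83 for *Plcg2* and -0.68 for *Nras*.

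Of 42 further ligands and receptor kinases outside the symbol rule, 28 had a probe, and 2 (7.14%, about the background share of 5.63% of all probes and 8.67% of the brightest) were lower in null than in wild-type ovaries at 7 dpn. These were *Hbegf*, a ligand of the EGF receptor (-0.74 ± 0.17, adjusted p = 0.0247), and *Ror2*, a receptor kinase for Wnt5a (-0.72 ± 0.07, adjusted p = 0.000255, limma). *Ror2* was at 1.97 and 1.83 in null, 2.10 and 2.10 in heterozygous and 2.57 and 2.67 in wild-type ovaries, and it was the 1 gene of this list called between heterozygous and wild-type (-0.52 ± 0.07, adjusted p = 0.0344, limma). In newborns 0 of the 28 were called between null and wild-type by limma, with 1 at an unadjusted p under 0.05 (13.8% of all probes), and without wild-type replicate 1 only *Ror2* was called (0.26). With age, *Angpt2*, a ligand of the endothelial receptor *Tek*, rose by 1.16 ± 0.21 and *Ror2* by 0.41 ± 0.07 in wild-type ovaries, and *Ror2* fell by 0.57 ± 0.07 in null ovaries. Those were the 2 of 28 called in the wild-type (7.14%, below the 8.92% of all probes), and without newborn replicate 1 there were 4 (14.3%, below the 18.9% of all probes), with *Angpt2* at 1.32, *Ror2* at 0.41, *Hbegf* at 0.60 and *Alk* at -0.17.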

How the data were processed

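Ovary RNA carried Cy3 and universal mouse reference RNA Cy5 on all 15 arrays, with no dye swap; the labels name a linear amplification kit, whereas the methods give no amplification for 7 dpn ovaries. The authors deposited the scanner output, with a processed intensity per spot and channel, background-subtracted and dye-balanced by the Agilent software, and series values used as an alternative on the log2 scale. Here log2 ratios of ovary over reference were taken from the deposited intensities, control and outlier spots were left out, spots of a probe were averaged (41006 probes), and each array was normalized by loess (span 0.01) against a virtual array, the mean over all arrays, as the methods describe. Groups came from the labels. The titles and stage field give the 7 dpn age, whereas the age field reads birth for every sample, and the methods count fewer 7 dpn samples than the labels. A model with 6 group means was fitted to all probes with limma 3.58.1 in R 4.3.3, with Benjamini-Hochberg adjustment over all probes and calls at 0.05, in 11 comparisons, and was checked on simulated data. With 2 or 3 arrays per group, their number limits the precision. Per the methods, samples were biological replicates from separate mice, as pools of mice at 7 dpn. Gene symbols came from RefSeq accessions (20657 probes carry one, 15294 were named), and promoters from RefSeq on GRCm38.p6.

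The members and lists were chosen with earlier results of these data known. Genes were named where called in any comparison, where among the 5 largest rises or falls of a comparison, or for a textbook role in the ovary. Further marker lists, over all arrays, were for meiotic germ cells (1.27 to 1.59), leukocytes (-2.62 to -1.64), smooth muscle (1.61 to 2.61), erythroid (-0.18 to -0.08), adrenal (0.24 to 0.57) and neural cells (-0.79 to -0.29). Alternatives were a span of 0.3, median centring, normexp background correction (offset 50), the ovary channel alone, the series values, a filter on dim probes, all probes of a gene, the replicate number as a block, the arrays of one age alone, a threshold of 0.01 and each array left out. No slide block was possible because each array had its own slide.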

Additional observations from a re-analysis of the deposited data

Results flagged for a closer look

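In 2 genes outside the symbol rule the null effect differed between the ages by a test of the difference itself. That of *Foxo1* differed by -1.12 ± 0.18 (adjusted p = 0.0437, limma, 7 dpn minus newborn), with null below wild-type by 1.33 at 7 dpn and by 0.21 at birth, where it was not called. Without newborn wild-type replicate 1, at 1.69 where the other newborn wild-type arrays stood at 1.16 and 1.26, the difference was -1.27. That of *Ror2* differed by -0.98 ± 0.09 (adjusted p = 0.006, limma): null ovaries stood at 2.40, 2.54 and 2.46 at birth against 2.21, 2.25 and 2.16 in the wild-type, and at 1.97 and 1.83 against 2.57 and 2.67 at 7 dpn. Without newborn wild-type replicate 1 the difference was -0.98.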

How the results depend on the processing

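Over 49 calls of a member in a comparison and all settings, 906 of 1157 values stayed called, 250 kept their direction without being called and 1 reversed, *Fgf11* in heterozygous ovaries with age at 0.13 in the ovary channel alone. In every setting but the stricter threshold, 12 of the 49 calls held. Besides single arrays left out and the stricter threshold, 8 settings were tried for the members called between 7 dpn null and wild-type. These ended the call of *Igfbp7* in 3, those of *Pdgfa* and *Vegfc* in 2 each, and those of *Pdgfra*, *Efna1* and *Pdgfrl* in 1 each. The smallest fall of *Igfbp7* over all settings was -0.48. At a threshold of 0.01, 4 members were called at 7 dpn between null and wild-type, 1 between null and heterozygous, 2 between newborn null and wild-type, 0 between newborn null and heterozygous, and 6, 5 and 1 with age in wild-type, heterozygous and null ovaries, since fewer values can pass. In the ovary channel alone these age counts were 7, 6 and 1. For newborn null against heterozygous, the count of 1 was 2 with median centring, 3 with normexp, 0 in the ovary channel alone, 2 with the series values and 0 with newborn arrays alone. With the series values 1 member was called between 7 dpn heterozygous and wild-type and 1 for the null effect between ages, and with normexp 1 for the null effect. The cause of these moves was not tested.

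The replicate numbers do not pair the samples: of 15 pairs of same-numbered arrays of an age, 3 had deviations correlated above 0.1 (-0.174 to 0.148). With the replicate number as a block, 4 members were called with age in null ovaries and 0 between newborn null and heterozygous, 8 between 7 dpn null and wild-type and 10 with age in the wild-type.

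With each array left out in turn, members called ranged from 2 to 10 (7 dpn null against wild-type), 1 to 6 (null against heterozygous), 2 to 9 (newborn null against wild-type), 0 to 2 (newborn heterozygous against wild-type), 0 to 2 (newborn null against heterozygous), 5 to 18, 5 to 13 and 0 to 8 (age in wild-type, heterozygous and null), and 0 to 7 and 0 to 2 (null and heterozygous effects between ages). The median fold change over the members moved by more than the SD of 0.047 between replicate arrays in 2 settings. With the series values it was 0.132 and 0.086 for 7 dpn null and heterozygous against wild-type, -0.154, -0.074 and -0.045 with age in wild-type, heterozygous and null ovaries, and 0.097 and 0.095 for the null and heterozygous effects between ages. In the ovary channel alone it was 0.095 for 7 dpn and 0.055 for newborn heterozygous against wild-type, 0.071 and 0.063 with age in wild-type and null ovaries, and -0.047 for the null effect. Arrays of a group correlated with r from 0.888 to 0.965, and *Fgf20* and *Fgfr3*, above background on few arrays, limit what can be said of them.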
